A study of Mus musculus with 7 samples.

Results

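Very many reads of the pooled read table started at few bases of the messenger RNA. For each read the start position is the mRNA base matched by its first base, once 6 leading bases had been left out. The positions described here were chosen by their read count: sense start positions of protein-coding nuclear genes with 300 or more reads. There were 1773 of them, in 420 genes, out of 308887 sense start positions in 15841 protein-coding nuclear genes with any sense read. That is 0.574% of the positions and 2.65% of the genes. Because the read count made the choice, the counts below are a description and were not tested.

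The series profiled RNA recovered with Ezh2 from mouse embryonic stem cells grown with LIF. The labels give 5 libraries from wild-type cells of the strain 129X(M.castaneusX129) with an anti-Ezh2 antibody, 1 library from Ezh2-null cells labelled M.musculus with the same antibody, and 1 library from wild-type 129X(M.castaneusX129) cells with IgG. Of the Ezh2 antibody libraries from wild-type cells, 1 is labelled a technical and 1 a biological replicate, and 2 are deeper sequencing of 2 lanes each. All values come from 1 table of read sequences with their counts, which neither a header nor a label ties to any of these libraries. It was treated as 1 pool, so no comparison between antibodies or genotypes was made and no value carries a replicate error.

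Ezh2 is the catalytic subunit of Polycomb repressive complex PRC2, which methylates histone H3 at silenced genes. RIP-seq recovers a protein from a cell or nuclear extract with an antibody, and sequences cDNA copied from the RNA recovered along with it. A read then begins where a cDNA or its copy ends, so the number of reads at 1 base reflects the RNA, the place where the cDNA began or ended, and any copies made by PCR. Reads of mRNA in this table are the reverse complement of the RNA. The matched part of a 40-base read therefore covers 34 bases of RNA that end at the start position, the 6 leading read bases face the next 6 bases of RNA, and the RNA from base 7 onward lies beyond the read.

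The RNA around the highest positions of 12 genes is shown because it holds the bases just past the sequenced stretch, where the letters scored below lie; 8 of the 12 have AGA at bases 7 to 9 and 4 (Serbp1, Mgea5, Baz2a and Hsp90ab1) do not. Each line gives 24 matched bases that end at the start position, the 6 bases that face the leading read bases, then in capitals bases 7 to 15 after the start position, and 3 further bases, written 5′ to 3′ in the sense of the mRNA from the GRCm38 reference. All 12 lie in coding sequence. The first 8 are the coding positions of that kind with most reads, and the other 4 were chosen after their values were seen, for their match to the letters in capitals.

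Serbp1: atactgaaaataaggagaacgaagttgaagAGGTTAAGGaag
Mgea5: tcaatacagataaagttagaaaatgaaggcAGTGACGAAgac
Eif3a: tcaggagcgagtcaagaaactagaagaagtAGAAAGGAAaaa
Baz2a: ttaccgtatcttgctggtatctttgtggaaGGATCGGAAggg
Utrn: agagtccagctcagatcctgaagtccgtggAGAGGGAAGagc
Eef2: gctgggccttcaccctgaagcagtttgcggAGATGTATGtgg
Bms1: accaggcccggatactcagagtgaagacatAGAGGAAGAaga
Hsp90ab1: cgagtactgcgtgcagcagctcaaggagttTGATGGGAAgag
Mtdh: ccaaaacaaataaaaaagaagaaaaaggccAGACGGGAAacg
Enah: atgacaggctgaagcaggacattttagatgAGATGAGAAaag
Nid1: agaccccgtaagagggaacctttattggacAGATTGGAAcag
Actb: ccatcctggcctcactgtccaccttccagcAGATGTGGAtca

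In GRCm38 the Serbp1 sequence runs across a splice junction from base 67272926 to 67277789 of chromosome 6 on the plus strand, with its start position in exon 6 of the transcript. The Mgea5 sequence lies at chr19:45770145-45770186 on the minus strand, in exon 8. That of Eif3a lies at chr19:60768793-60768834 on the minus strand, in exon 17, and that of Baz2a at chr10:128122402-128122443 on the plus strand, in exon 19. The Utrn sequence lies at chr10:12406482-12406523 on the minus strand, in exon 69, and that of Eef2 at chr10:81179127-81179168 on the plus strand, in exon 5. Bms1 runs across a junction from 118396284 to 118396781 of chromosome 6 on the minus strand, with the start position in exon 15. Hsp90ab1 lies at chr17:45568994-45569035 on the minus strand, in exon 9, and Mtdh at chr15:34140718-34140759 on the plus strand, in exon 12. Enah runs across a junction from 181906420 to 181908314 of chromosome 1 on the minus strand, with the start position in exon 14, and Nid1 across one from 13506493 to 13507636 of chromosome 13 on the plus strand, in exon 17. Actb lies at chr5:142903854-142903895 on the minus strand, in exon 6.

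The 1773 positions held 2456302 of the 5477015 sense reads of protein-coding nuclear genes, or 44.8% (95% Clopper-Pearson interval 44.806 to 44.889). Within the 420 genes they held 67.1% of the sense reads. All intervals here cover counting error only. They take reads, positions and bases as independent, which PCR copies and overlapping windows are not. The median position held 565 reads, with quartiles at 387 and 1012. There were 458 positions with 1000 or more reads, and 28 with 10000 or more, which lay in 10 genes. Just inside the minimum, 7 positions held 300 reads, among them 1 each in Mgea5, Il1rl1 and Bms1. Just outside it, 6 positions held 299 reads, among them 1 each in Prpf4b, Acin1 and Paxbp1.

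Most genes had few such positions and a few genes had many. In 225 genes there was 1 position, and in 38 genes there were 10 or more. Serbp1 had 111 of them, Eif3a 94, Bms1 72, Srsf11 56, Hsp90ab1 53, Enah 33, Myh9 31, Abcf1 31, Lefty2 28 and Pnisr 27. The positions were also close together. Joined where they lay within 5 bases of each other, they formed 861 runs, of which 612 held 1 position and the longest held 58. The median gene had 39.7% of its sense reads at its high positions (quartiles 25.6% and 56.6%), and in 144 of the 420 genes they held over 50% of the reads.

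The highest positions belonged to mRNAs of many functions. The highest position of Serbp1, the gene of an mRNA-binding protein, had 161504 reads, and that of Mgea5 had 36214. Mgea5 is the gene of the O-GlcNAcase that removes N-acetylglucosamine from proteins. Eif3a, a subunit of translation initiation factor eIF3, followed with 33268, and Baz2a, a subunit of the nucleolar remodelling complex that silences ribosomal DNA, with 28353. These positions held 22.2% of the sense reads of Serbp1, 48.4% of those of Mgea5, 16.4% of those of Eif3a and 48.03% of those of Baz2a. The 1 position thus took a smaller share of the reads in Serbp1 and Eif3a, which had many high positions, than in Mgea5 and Baz2a.

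Next came Lefty2, a secreted inhibitor of Nodal signalling, with 18534 reads at a base 11 bases before the annotated transcript end. Utrn, the dystrophin-related protein utrophin, had 18039, and Eef2, the elongation factor that moves the ribosome along the mRNA, had 14772. Rad18, a ubiquitin ligase of DNA damage tolerance, had 11686, Bms1, a GTPase of small ribosomal subunit assembly, had 11662, and Hsp90ab1, a cytosolic chaperone, had 10903. Genes from the 11th to the 18th place were Myh9, a nonmuscle myosin heavy chain, with 9337, Pdpn, the membrane glycoprotein podoplanin, with 8167, Hsp90aa1, the other cytosolic Hsp90, with 7995, Mtdh with 7442, the asparagine synthetase gene Asns with 7252, Zfp106 with 7234, the splicing regulator Srsf11 with 7142 and the actin regulator Enah with 7026. They were followed by Pnisr with 6811, the basement membrane gene Nid1 with 6679, the transcription factor Zfp281 with 6000, the ornithine decarboxylase gene Odc1 with 5232, Actb with 4793, the splicing cofactor Son with 4603 and Dcaf13 with 4511. Of these 25 positions 21 lay in coding sequence, 3 in the downstream untranslated region and 1 (Rad18) in an isoform annotated as noncoding.

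**Figure D1:**
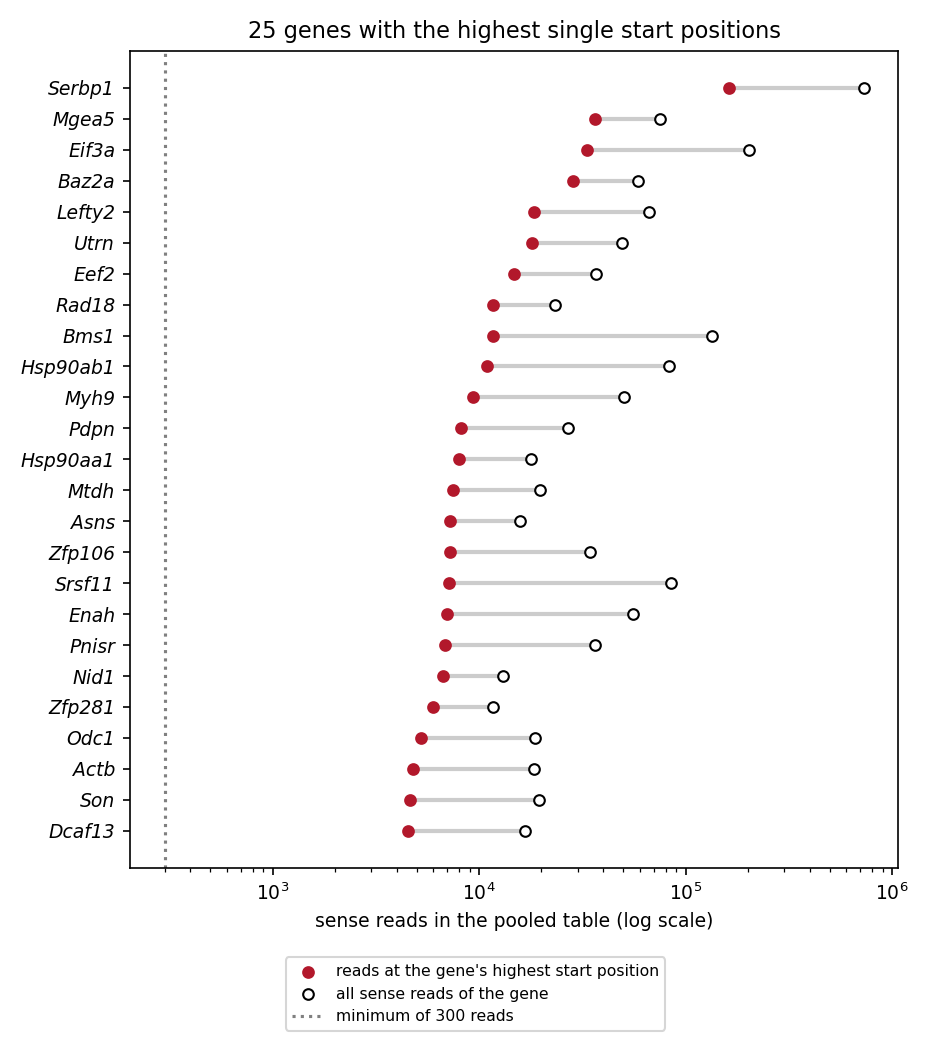
Reads at the highest start position (filled points) and all sense reads (open points) of the 25 genes with the highest positions, on a log axis of read counts in the pooled table, with the minimum of 300 reads dotted. Serbp1 stands apart with 161504 reads at 1 position, and the filled points of the other 24 genes lie between 4511 and 36214.

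The table pools reads of 36 and 40 bases, and most high positions were seen at both lengths. Reads of both lengths occurred at 1741 of the 1773 positions. Reads of 40 bases alone reached 300 at 1536 positions, reads of 36 bases alone at 136, and each length reached it at 120. Of the reads at high positions 8.54% had 36 bases, against 12.4% at the other positions of the same genes. Among the 25 highest positions named above, those of Actb and Zfp281 had no 36-base read, and 32 of the 1773 positions had none. At 37 positions in 23 genes the commonest read length was neither of these. The highest position of Myh9 was of that kind, with 97.6% of its 9337 reads 26 bases long. The 300 reads of the Bms1 position at the minimum included 2 of 40 and 1 of 36 bases.

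Each high position held reads of more than 1 sequence. The median position held 87 distinct sequences, with a range from 10 to 4127. Reads that differ in the 6 leading bases, in a mismatch or in length count as distinct. How many of the reads are PCR copies was not tested. The leading bases differed from the reference more often than the matched ones. At high positions the read base farthest from the matched part differed from the reference in 32.9% of reads, and the base next to it in 6.07%. At the other positions of the same genes these shares were 33.0% and 5.44%. At the 4 bases in between, the shares were higher at high positions, from 28.6% down to 12.6%, against 24.5% down to 10.03% at the other positions. All 6 leading bases fitted the reference in 36.3% of reads at high positions and in 41.8% at the others. In the matched part, 91.7% of reads at high positions had no mismatch, against 87.6% at the others.

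Some high positions stood apart in these measures. All 6 leading bases fitted in 84.7% of reads at the highest position of Eef2 and in 83.1% at that of Actb. They fitted in 0.111% of the 11686 reads of Rad18 and in 0% of the 6000 reads of Zfp281, where the 34 matched bases are all purines. Whether the reads at these positions of Rad18 and Zfp281 come from other RNA that continues differently was not tested. At 97 of the 1773 positions, over 50% of the reads lay within 1 further mismatch of another gene, so that their gene is less certain.

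The RNA just past the sequenced stretch held more purines at high positions than at others, most clearly at bases 7 to 9 and 12 to 17. So that genes with many positions would not decide it, the highest position of each of the 420 genes was examined first. At bases 7, 8 and 9 after it a purine stood in 97.4%, 95.95% and 87.6% of genes. At the other positions of the same genes these shares were 77.0%, 75.7% and 67.7%. At base 10 the purine share of the highest positions was 42.1% (37.4 to 47.0), below the 62.4% of the other positions. At base 11 it was 56.9% (52.0 to 61.7), below their 63.6%, and from bases 12 to 17 it lay between 73.7% and 79.9%. From base 19 on it lay above the other positions at some bases and below at others. It was 57.4% against 60.2% at base 22 and 62.7% against 59.9% at base 24. The 34 matched bases gave 57.3% purines at the highest positions (56.5 to 58.1) and 58.6% at the other positions (58.53 to 58.66).

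**Figure D2:**
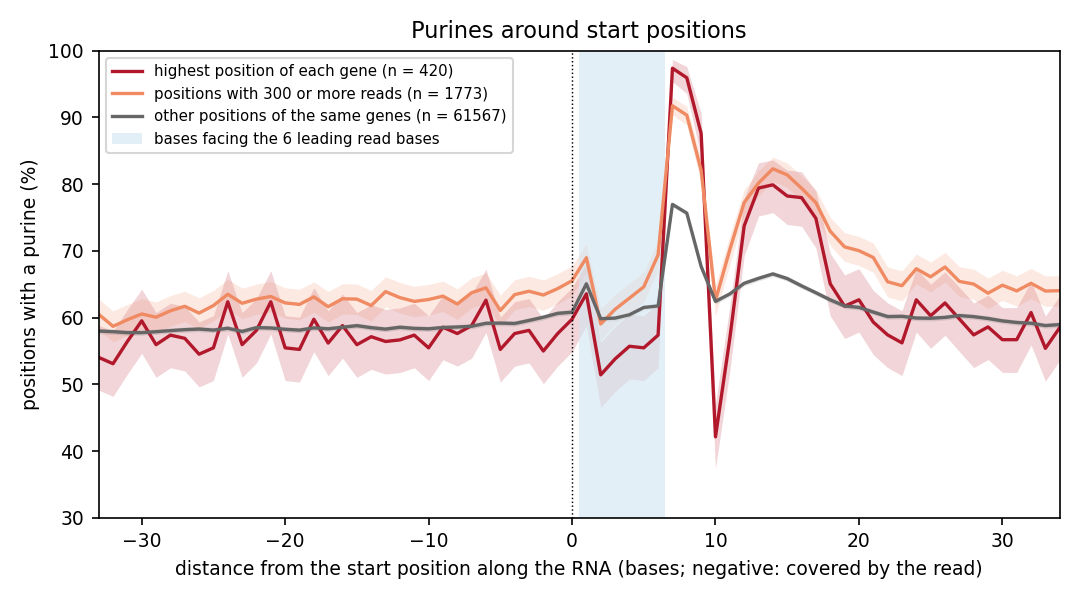
Percentage of start positions with a purine at each base from 33 before to 34 after the start position, for the highest position of each gene, for all positions with 300 or more reads and for the other positions of the same genes, with 95% Clopper-Pearson bands. The 6 bases that face the leading read bases are shaded, and the line of the highest positions reaches 97.4% at base 7 and drops to 42.1% at base 10.

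Single letters differed from the other positions more than the purine share did at bases 7 to 9. To fix them without the high positions, the most frequent base at each of bases 7 to 15 was taken from the highest positions of 8557 genes that had no position of 300 reads and at least 10 reads at their highest. This gave AGATGGGAA. At the highest positions of the 420 genes A stood at base 7 in 91.4%, G at base 8 in 92.6% and A at base 9 in 80.95%, against 51.0%, 44.2% and 39.7% at the other positions of the same genes. T stood at base 10 in 46.2% of the highest positions, against 21.2% of the other positions. For bases 11 to 15 the named letter stood in 34.5% to 52.6% of the highest positions, against 30.6% to 34.8% of the others.

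The string AGA at bases 7 to 9, scored on the RNA strand alone, followed 311 of the 420 highest positions, or 74.0% (69.6 to 78.2). It followed 39.3% of all 1773 high positions (37.04 to 41.6; 3 positions end too near the transcript end to be scored), 15.4% of the other positions of the same genes (15.12 to 15.7) and 2.67% of all bases of the same genes' longest coding transcripts. The contrast was smaller where AGA was allowed to lie within 3 bases of that place. It then followed 77.1% of the highest positions (72.8 to 81.0), 64.5% of all high positions (62.2 to 66.8) and 40.3% of the other positions (39.9 to 40.7). The lower share among all high positions than among the highest ones went with their crowding. AGA followed 68.1% of the highest positions of the 861 runs (64.8 to 71.2), but 12.1% of the high positions that were not the highest of their run (10.1 to 14.4). A position right beside one with AGA at bases 7 to 9 cannot have AGA at its own bases 7 to 9. The low share is therefore partly fixed by how the runs were joined. The string at bases 7 to 9 was found at 18 of the 25 highest positions named above. The 7 without it were those of Serbp1, Mgea5, Baz2a, Hsp90ab1, Pdpn, Zfp106 and Zfp281.

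The highest positions carried AGA in each part of the transcript. The share was 76.2% in coding sequence (70.9 to 80.9, 302 positions), 67.5% in the downstream untranslated region (56.3 to 77.4, 83 positions), 69.0% in isoforms annotated as noncoding (49.2 to 84.7, 29 positions) and 5 of 6 in the upstream untranslated region. The intervals overlap. The string was also more frequent at higher read counts, up to the last class. Among the highest positions of all genes it followed 20.3% of those with 1 read, 26.4% with 2 to 9 reads, 38.7% with 10 to 99, 65.0% with 100 to 299, 71.0% with 300 to 999 and 82.5% with 1000 to 9999 (74.5 to 88.8). With 10000 or more reads it was 6 of 10. Nearly all highest positions with 10 to 99 and 100 to 299 reads are those from which the letters were taken. The shares of these classes are therefore not independent of that choice. Over all start positions, neighbours of the highest included, the shares in the same classes were lower, at 17.6%, 21.1%, 25.8%, 35.6%, 38.03% and 43.5%, and 10 of 28 at 10000 or more reads.

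Scored over all 9 letters, the highest positions matched a median of 5, all high positions a median of 4 and the other positions of the same genes a median of 3. At least 6 letters matched at 45.7% of the highest positions (40.8 to 50.6), 22.9% of all high positions (20.97 to 24.95) and 6.84% of the others (6.64 to 7.04). In the sequences above, Hsp90ab1, Mtdh, Enah and Nid1 matched 8 letters, Eif3a, Baz2a and Actb 7, Utrn 6, Mgea5, Eef2 and Bms1 5, and Serbp1 3. Hsp90ab1 and Baz2a thus lack AGA at bases 7 to 9 and still match most of the letters.

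With each gene counted equally, the highest position matched 5.27 letters and the mean of the gene's other positions 3.20. The difference was 2.06 ± 1.47 letters (SD over 418 genes, which is the spread between genes and not a replicate error), and it was above 0 in 382 genes and below 0 in 36. Purines at bases 7 to 15 gave 76.7% at the highest position and 66.7% at the gene's other positions, a difference of 10.06 ± 15.7 percentage points (SD over 418 genes), above 0 in 314 genes and below it in 102. For the 34 matched bases the same values were 57.3% and 56.6%, a difference of 0.662 ± 10.6 points (SD over 420 genes), above 0 in 222 genes and below it in 197. In these genes the marked difference thus lay past the read and not in the 34 matched bases. The 6 bases between, which face the leading read bases, differed the other way when pooled over genes. They gave 56.2% purines at the highest positions (54.3 to 58.2) and 61.4% at the other positions.

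Seen from the transcripts, the share of bases that became high positions climbed with the letters matched. For each of the 1925 genes with 300 or more sense reads, the longest coding transcript was scored at every base. Among bases followed by 0 matching letters, 0.00194% had 300 or more reads (0.00103 to 0.00331), and among those with 3 matches 0.0135%. The share was 0.0873% at 5 matches, 0.566% at 7 (0.465 to 0.683), 1.28% at 8 (0.836 to 1.87) and 2.29% at 9, which is 3 of 131 bases (0.475 to 6.55). Any read at all started at 0.611% of the bases with 0 matches and at 42.7% of those with 9. The scored genes include genes without a high position, from whose highest positions the letters were taken. The share with any read is therefore not independent of that choice. Bases with 7 or more matches were few, 21413 of 9041327, and 138 of the 1678 high positions on these transcripts lay at them. Most bases with many matches thus had fewer than 300 reads, and most high positions had fewer than 7 matches.

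**Figure D3:**
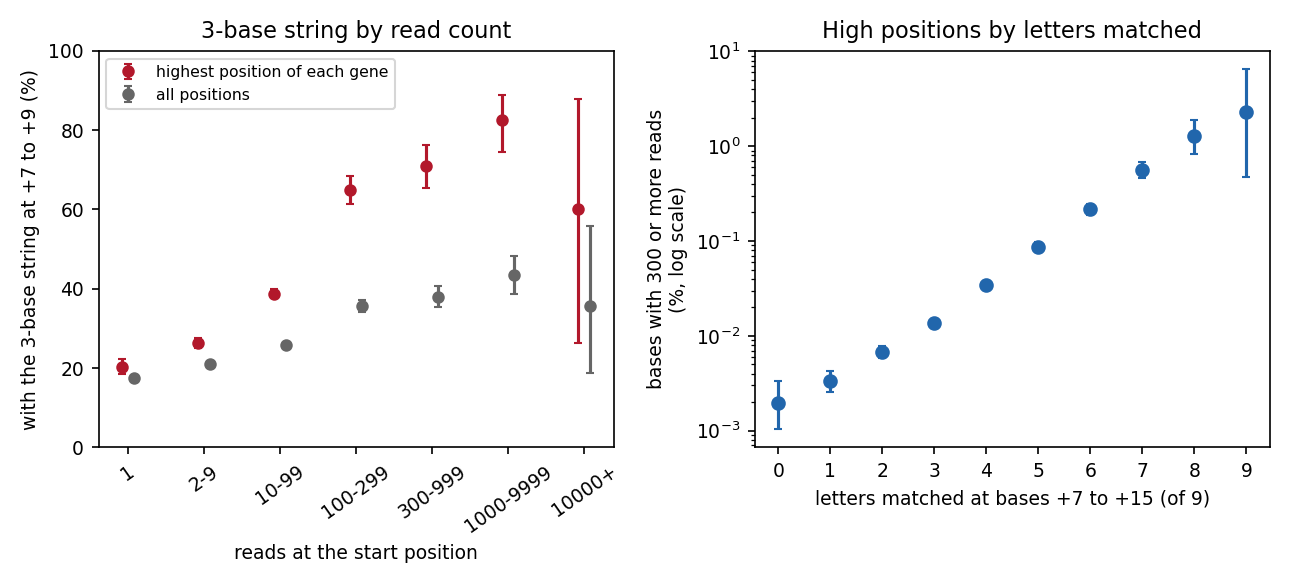
On the left, the percentage of start positions followed by AGA at bases 7 to 9, by the number of reads at the position, for the highest position of each gene and for all positions, which goes from 20.3% at 1 read to 82.5% at 1000 to 9999 reads for the highest positions. The letters were taken from nearly all of the highest positions with 10 to 99 and 100 to 299 reads. On the right, the percentage of transcript bases with 300 or more reads on a log axis, by how many of the 9 letters match, from 0.00194% at 0 to 2.29% at 9; bars are 95% Clopper-Pearson intervals.

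High positions outside the sense strand of coding genes showed the string less evenly. In antisense orientation to protein-coding nuclear genes there were 141 positions with 300 or more reads in 99 genes, and AGA followed the highest position in 39.4% of the genes (29.7 to 49.7), where the interval lies below that of the 420 sense genes. In sense orientation to other nuclear genes there were 266 positions in 29 genes, with 58.6% (38.9 to 76.5). Mitochondrial genes had 352 antisense positions in 12 genes, where AGA followed 4 of 10 highest positions that could be scored, and 190 sense positions in 10 genes, where it followed 2 of 10. The labels name template switching but no primer for the cDNA, and whether pairing of this RNA with a primer bears on the counts was not tested.

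When every high position is counted, purines were raised on both sides of the start. The 34 matched bases of the 1773 positions gave 62.4% purines (61.97 to 62.7), against 58.6% at the other positions of the same genes and 51.9% in those genes' whole longest coding transcripts. The highest position of each gene gave 57.3% in its matched bases. Values differed with the number of high positions in a gene. The 38 genes with 10 or more held 966 of the positions, with 65.9% purines, against 62.3% at the other positions of these 38 genes. The 225 genes with 1 high position gave 55.9%, against 57.1% at their other positions pooled over genes. With each of these genes counted equally, their other positions gave 55.3%, below the 55.9%. Within the 38 genes the highest positions gave 61.5% and the high positions below them 66.04%, so both the gene and the place within it went with the purine share. In the 6 bases after the start A made up 33.1% at high positions (32.2 to 33.96), 29.3% at other positions of the same genes, and 27.3% at the highest position of each gene. Bases 7 to 15 gave 79.8% purines at all high positions (79.2 to 80.4), 76.8% at the highest of each gene (75.4 to 78.1) and 67.8% at the other positions. Bases 16 to 34 gave 67.7%, 61.3% and 60.6%.

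High positions lay mostly in coding sequence. Of the 1773, 86.0% did (84.3 to 87.6), 10.6% lay in the downstream untranslated region (9.21 to 12.1), 0.564% in the upstream one and 2.82% in isoforms annotated as noncoding. The other positions of the same genes gave 78.8% coding and 14.7% downstream, and of the bases of these genes' longest coding transcripts 57.1% are coding and 37.4% downstream. A position was called coding where any isoform matched by its reads codes there. The transcript bases were counted on 1 isoform per gene, so their shares are not a like measure. Taking the highest position of each gene, 71.9% were coding (67.3 to 76.2) and 19.8% downstream, below the coding share of the other positions. With each gene counted equally, 68.8% of a gene's other positions were coding, which lies inside that interval. In the 38 genes with 10 or more high positions 96.8% of these were coding, against 90.8% of the other positions of these genes. In the 225 genes with 1 high position 67.6% were, against 73.9% of the other positions pooled over genes. With each of the 225 genes counted equally, 64.3% of the other positions were coding, below the 67.6%. All 111 positions of Serbp1, all 94 of Eif3a, all 72 of Bms1 and all 53 of Hsp90ab1 were coding, and none of the 28 of Lefty2 was.

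Along the coding sequence the 1525 coding high positions had a median at 58.5% of the coding length, with quartiles at 25.9% and 72.8%. For the highest position of each gene the median lay at 43.7% of the coding length, with quartiles at 20.7% and 70.9%, against a median of 47.0% with quartiles at 22.9% and 71.2% for the other coding positions of the same genes. Serbp1 on chromosome 6 and Eif3a and Mgea5 on chromosome 19 weighed on the spread over chromosomes. Chromosome 6 held 36.6% of the reads at high positions and 15.1% of the positions, and chromosome 19 held 13.2% and 11.3%.

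The residues encoded past the start followed the purines. A codon of purines alone encodes Lys, Glu, Arg or Gly, and the codons GAA and GAG encode Glu. In the 34 bases after the start of coding positions, Glu made up 23.8% of residues at all high positions (23.2 to 24.5) and 17.95% at the highest position of each gene (16.6 to 19.3). It made up 15.01% at the other positions of the same genes and 8.33% of their whole coding sequences. Lys made up 13.2%, 10.7%, 9.83% and 6.70% in the same order. The charged residues Lys, Glu, Asp and Arg together made up 53.03%, 43.6%, 39.98% and 26.4%, and purine-only codons 45.3%, 37.1%, 33.1% and 21.1%. Leu ran the other way, with 5.16%, 6.07%, 6.30% and 8.94%.

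With each gene counted equally, Glu after the start made up 17.9% at the highest position and 13.6% at the gene's other positions, a difference of 4.30 ± 12.3 points (SD over 301 genes), above 0 in 180 genes and below it in 120. Both Glu codons took part. GAG made up 11.97% of codons at all high positions, 9.24% at the highest of each gene and 8.17% at the others, and GAA 11.9%, 8.71% and 6.84%. The residues and the letters are read from the same bases and are not separate observations. The interval of the Lys share at the highest positions (9.67 to 11.8) includes the value at the other positions.

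**Figure D4:**
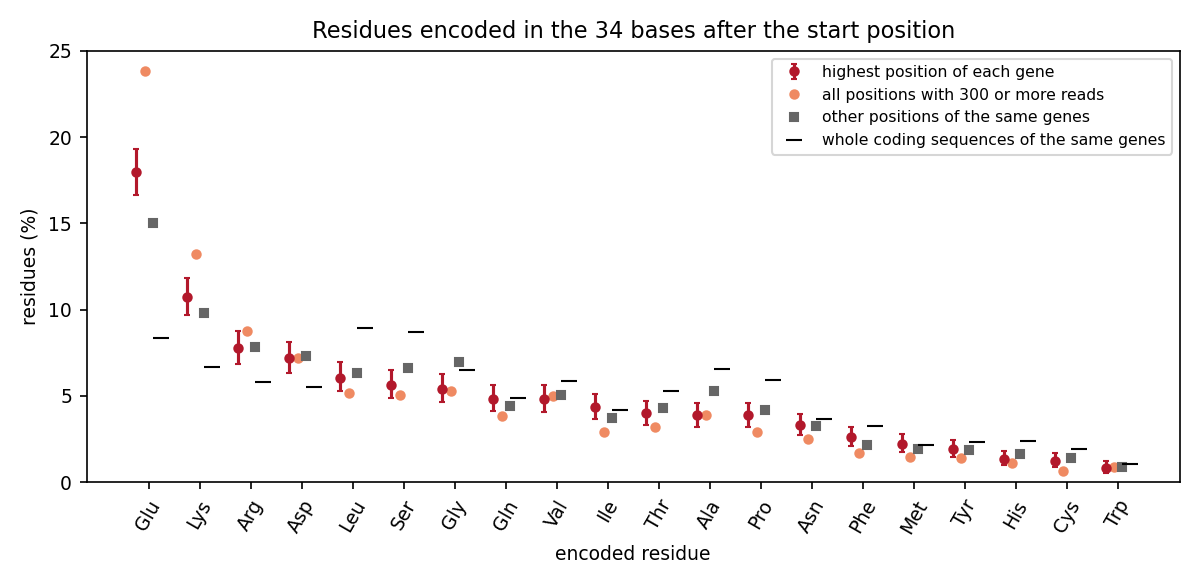
Percentage of each residue among those encoded in the 34 bases after the start of coding positions, for the highest position of each gene (with 95% Clopper-Pearson intervals), for all positions with 300 or more reads, for the other positions of the same genes and for their whole coding sequences. Glu stands at 17.95% at the highest positions and at 23.8% over all high positions, against 8.33% in whole coding sequences.

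In the 34 bases that the reads cover, the residues differed less. Lys and Glu together made up 26.8% at all high positions (26.1 to 27.5) and 21.2% at the other positions of the same genes (21.1 to 21.4), but 20.3% at the highest position of each gene (18.9 to 21.7). In the 38 genes with 10 or more high positions these gave 30.7%, against 25.8% at the other positions of these genes. In the 225 genes with 1 they gave 18.5%, against 19.7% with positions pooled over genes. Counted equally by gene, the 225 genes gave 18.6% at the high position and 16.9% at the other positions. These 2 values may not cover the same genes, since only coding positions enter. With each gene counted equally the highest position gave 20.4% and the gene's other positions 19.7%, with 148 genes above 0 and 154 below. All 3 kinds of position exceeded the 15.04% of the whole coding sequences.

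The letters fell at each base of the codon, least often with the first letter at its first base. Where AGA followed the highest position in coding sequence, its first letter was the first base of a codon in 14.0% of 229 cases, the second in 39.3% and the third in 46.7%. Where it followed the other positions of the same genes these shares were 15.1%, 40.4% and 44.5%. The intervals of the highest and the other positions overlap at each base of the codon. Over all high positions the shares were 11.9%, 37.9% and 50.2% of 578 cases, and the last (46.02 to 54.3) lies above that of the other positions (43.4 to 45.6).

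The genes with high positions were grouped by lists of functions. Of the 1925 genes with 300 or more sense reads, 21.8% had a high position, and this is the share beside which each list is set, since a gene with fewer reads cannot hold one. Of the translation initiation and elongation factors 11 of 17 such genes had one, or 64.7%, with 145 positions, led by Eif3a and Eef2. Of the genes of collagens and matrix 11 of 25 had one, or 44%, led by Fn1 (fibronectin, 2640 reads at its highest and 26 positions) and Sparc (1648 and 8). Chromatin remodellers had 9 of 24, led by Baz2a and by Baz1b (3992 reads and 14 positions). DEAD and DEAH box helicases had 7 of 20, led by Ddx23 (3778) and Ddx21 (2318). The shares of the lists and of all genes were not matched for total sense reads per gene. Whether total reads account for the differences between lists was not tested.

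Lists near the share over all genes held other well-read mRNAs. Zfp zinc finger genes had 9 of 30, chaperones 7 of 24, actomyosin and giant cytoskeletal genes 7 of 24, SR protein and spliceosome genes 10 of 36 and pluripotency genes 4 of 15, the last led by Lefty2 and by L1td1, an RNA-binding protein of stem cells, with 2820 reads at its highest of 20 positions. Nuclear pore and transport genes had 4 of 16, led by Nup210 (1931), hnRNP genes 5 of 21, led by Hnrnpul1 (4278) and Hnrnpm (3046), and cytosolic ribosomal protein genes 2 of 9, which were Rpsa (3073) and Rpl5 (353). These 2 are from a family with many near-identical copies, so their reads are uncertain.

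Lower shares were found for 7 lists. Cohesin, condensin and Ctcf had 3 of 16, led by Smc1a (1524 reads, 19 positions), and ribosome biogenesis factors 4 of 24, led by Bms1 and Npm1 (1696). The list of kinesins and centrosomal proteins had 4 of 23, led by Golgb1 (2765) and Cep55 (2435). Golgb1, which this list includes, encodes a Golgi protein. Ubiquitin ligases and the proteasome had 6 of 39, among them Psmc1 (431), glycolysis and citrate cycle enzymes 1 of 8, which was Eno1 (721), and aminoacyl-tRNA synthetases 1 of 9, which was Aimp1, a scaffold of the synthetase complex, with 3467 reads and 12 positions. Polycomb subunits had 1 of 10. That gene was Ezh2 itself, with 1578 reads at its highest and 42.3% of its 12795 sense reads at 7 high positions. Most lists hold few genes, so a difference of 1 or 2 genes moves their share by several points.

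**Figure D5:**
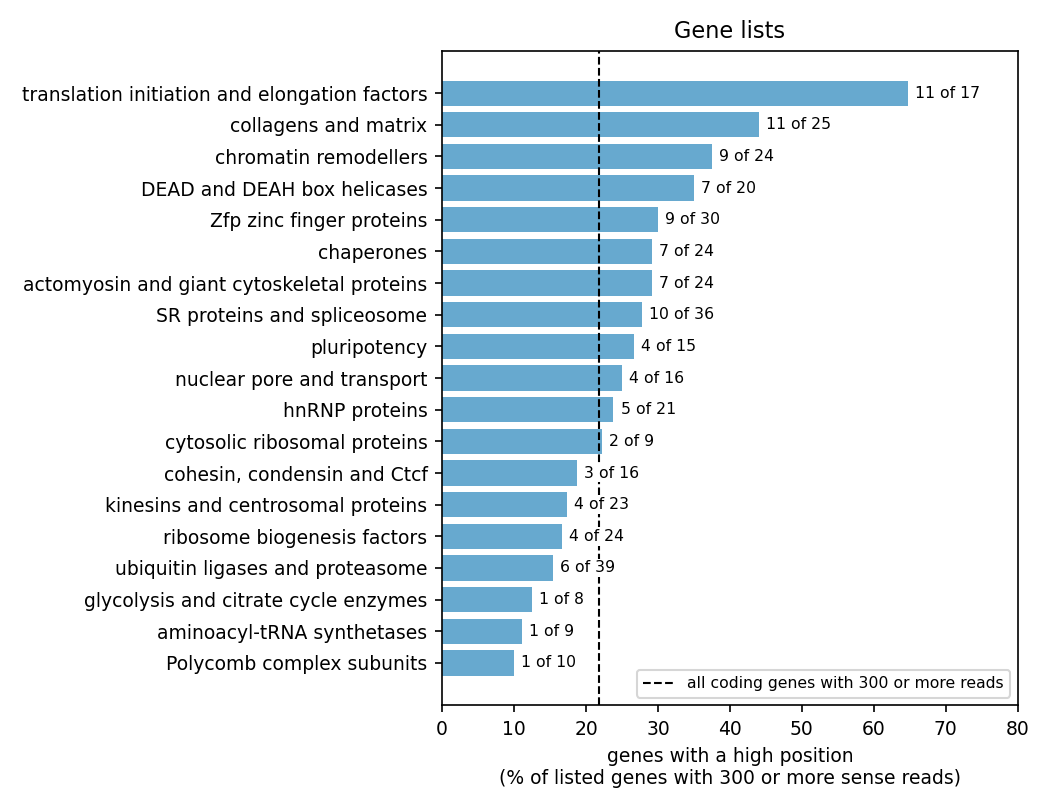
Percentage of the listed genes with 300 or more sense reads that had a position of 300 or more reads, by gene list, with the counts beside each bar. The dashed line is the 21.8% over all protein-coding nuclear genes with 300 or more sense reads, and the translation factors stand highest with 11 of 17.

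Markers of more than 1 cell type held high positions. The counts below run over whole marker lists, where 2.65% of all genes with any read and 21.8% of those with 300 or more had one. Of 15 embryonic stem cell markers 13 had at least 50 sense reads (109320 summed over the list, 66761 of them in Lefty2), and 4 had high positions: Lefty2 with 28, L1td1 with 20, Tet1 with 2 and Tdgf1 with 1. Pou5f1 had 429 reads and none, and Nanog had 37 reads. Of 12 fibroblast markers all had at least 50 (59368 summed, 39715 of them in Fn1), and 6 had high positions: Fn1 with 26, Acta2 with 3, Postn with 2, and Col1a1, Vim and Pdgfrb with 1 each. The 4 blood markers summed to 33 reads and the 4 neuron markers to 75, with no high position. The part of other cells in the high positions of matrix genes was not tested.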

How the data were processed

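One deposited table with no header gives read sequences of 12 to 36 and 40 bases, each with a count of reads; the counts are the authors' and are not scaled. The name of the deposited file was not taken as a source for its sample or its filters, and the labels do not say how the reads were filtered; mm9 is the build named in the submitters' processing notes. The table holds 34072479 reads, of which 31529044 have at least 26 bases. These lost their 6 leading bases and were matched with bwa 0.7.19 to the GENCODE M21 transcripts (GRCm38) without gaps, with up to 2 mismatches. Reads with best placements in 1 gene were kept, with sense placements preferred where genes overlap. The procedure was tested on simulated reads. Introns and intergenic sequence were not searched.

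Matched, following and residue windows were read from the gene's annotated transcripts, and only codons wholly inside a window were counted. Shares have exact Clopper-Pearson 95% intervals (scipy 1.17.1). With no sample assigned, the table was treated as 1 pool without replicates, and no test was made. Members, gene lists and letters were chosen with earlier results of these data known. Named are the 25 genes with the highest positions, the 10 with most high positions, the 3 positions on each side of the minimum and the 2 leading genes of each of 19 lists; others named are markers, and 1 gene that the rule takes is not reported here. Alternatives changed the minimum, mismatches, read length, window, weighting and genes.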

Additional observations from a re-analysis of the deposited data

How the results depend on the processing

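Without replicates, shares were compared by their counting intervals alone, so small moves count as moves. The number of positions was compared by its ratio to the reported number. With a minimum of 100 reads there were 5656 positions with 56.4% of the sense reads, 60.7% purines in the matched bases, 31.1% A in the 6 bases after the start, 81.4% in coding sequence, 24.8% Lys and Glu and 36.8% followed by AGA. With a minimum of 1000 these were 458, 32.5%, 64.2%, 35.4% and 89.5%, with AGA at 43.01%. In 36-base reads alone there were 136 positions with 16.9% of reads, 64.4% purines, 92.6% coding, 28.2% Lys and Glu and 45.6% AGA, and in 40-base reads alone 45.2% of reads. Counting distinct sequences gave 24.4% of them, 64.4% purines, 91.3% coding and 33.6% AGA. Keeping only the highest position of each run within 5 bases gave 861 positions. These held 22.9% of reads, a share that leaves out the reads at the other positions of their runs. They had 59.4% purines, 27.6% A, 80.02% coding, 22.9% Lys and Glu and 68.1% AGA. The highest position of each gene gave 57.3% purines, 27.3% A, 71.9% coding, 20.3% Lys and Glu and 74.0% AGA. Weighted by reads, the values were 64.1% purines, 90.4% coding, 28.4% Lys and Glu and 36.8% AGA. A window of 20 bases gave 63.1% purines and 27.6% Lys and Glu. The share of reads was 45.6% without mismatches, 36.9% without Serbp1 and 45.01% with no other gene within 1 further mismatch. The alternatives for AGA were chosen after seeing the data, and the cause of these moves was not tested. Set against the other positions as reported, which were not recomputed for each alternative, the AGA share lay above their 15.4% in all 11 alternatives run for it. The purine, coding and Lys and Glu shares fell below those of the other positions, pooled over genes, only with the highest position of each gene. The A share did so there and with only the highest position of each run. With each gene counted equally, the highest position gave 57.3% purines, 71.9% coding and 20.4% Lys and Glu. The gene's other positions then gave less, at 56.6%, 68.8% and 19.7%. These differences were small beside the spread between genes, with SDs of 10.6, 23.7 and 12.6 points. For Lys and Glu the highest position lay above the gene's other positions in 148 genes and below in 154. No paired analysis was possible because the 1 table cannot be tied to replicates.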
